A study of Mus musculus with 4 samples.

Results

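The oxidative phosphorylation genes described here are the nuclear-encoded subunits of the respiratory chain and the ATP synthase. They were chosen by symbol alone: every row of the expression table whose symbol follows the naming pattern of the Nduf (complex I), Sdh (complex II), Uqcr (complex III), Cox4 to Cox8 (complex IV) or Atp5 (complex V) families. The pattern found 81 of 23997 genes, of which 36 belong to complex I, 4 to complex II, 8 to complex III, 17 to complex IV and 16 to complex V. No expression value entered the choice. By textbook knowledge Ndufa4 carries a complex I name but sits in complex IV, and Atp5s (factor B) is not a core part of the synthase. Both were kept where the symbol puts them.

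RNA was sequenced from lung endothelial cells of C57BL/6 mice, cultured with 10% serum. All 4 conditions received an siRNA for 48 h, either a control siRNA or one against the glucocorticoid receptor (GR, gene Nr3c1), and within each siRNA arm cells were left untreated or received the synthetic glucocorticoid dexamethasone (DEX) at 100 nM for 18 h. Where values are given in order, the order is control siRNA without DEX, then with DEX, then GR siRNA without DEX, then with DEX. The series states 3 replicates per condition, but the table holds 1 column per condition, so no value below has an SD, n or p-value and every difference is between 2 columns with no replicate check. The labels do not say whether the 3 replicates were averaged, merged or left out of the table.

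Oxidative phosphorylation couples electron transfer to ATP synthesis in the inner mitochondrial membrane. Complex I (NADH dehydrogenase) and complex II (succinate dehydrogenase) pass electrons to ubiquinone, complex III hands them to cytochrome c, and complex IV (cytochrome c oxidase) hands them to oxygen. Complexes I, III and IV pump protons, and complex V (the ATP synthase) uses the proton gradient to make ATP. Most subunits are encoded in the nucleus and a few in mitochondrial DNA. Cultured endothelial cells are known to draw much of their ATP from glycolysis, and glucocorticoids are known to affect mitochondrial genes in other tissues.

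Values are FPKM, fragments scaled to transcript length and to the size of the library, so levels of different genes can be set side by side per unit length. For 20 members the longest transcript is under 700 nt. The part of transcript length in the levels was not tested. The columns summed to between 537772 and 566610 FPKM, and the relative depth read from genes of few fragments was 0.671 for control siRNA, 0.962 for control siRNA with DEX, 1 for GR siRNA and 0.811 for GR siRNA with DEX. Nr3c1 was 14.4 and 14.3 FPKM in the control siRNA columns without and with DEX, against 5.45 and 5.32 FPKM in the GR siRNA columns. All 10 endothelial markers passed 1 FPKM, with summed levels of 2222 to 2542 FPKM, lower in both GR siRNA columns (2282 and 2222 FPKM) than in both control siRNA columns (2539 and 2542 FPKM). Most of that gap lay in Cldn5 (493 and 525 against 368 and 332 FPKM) and Egfl7 (521 and 516 against 424 and 410 FPKM), while Kdr was higher in both states and the median difference of the 10 was -0.07 and -0.06. Of 10 fibroblast and mural markers 3 passed 1 FPKM, with sums of 15.4 and 13.9 FPKM with control siRNA and 20.1 and 18.5 FPKM with GR siRNA. Of 7 lung epithelial markers 2 passed it (sums of 4.24 to 5.70 FPKM). Among the leukocyte markers Ptprc and Cd3e were listed at 0, while Cd68, a lysosomal gene, was 161 to 218 FPKM. The part of these other cell types in the results was not tested, and fewer cells of a type cannot be told apart from less RNA per cell.

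Of the 81 subunit genes, 76 reached 1 FPKM in at least 1 column and 5 did not, all 5 of them tissue-restricted forms of complex IV subunits. The 76 were abundant. Their median was 146 FPKM with control siRNA, 153 with control siRNA and DEX, 128 with GR siRNA and 150 with GR siRNA and DEX, where the median of all genes of at least 1 FPKM was 14.8 to 15.2 FPKM. Between 54 and 58 of the 76 lay above the 90th percentile of those genes, depending on the column. The 81 genes together took 2.64% of all FPKM with control siRNA, 2.73% with DEX added, 2.49% with GR siRNA and 2.68% with GR siRNA and DEX.

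Levels differed more between complexes than between conditions. In the control siRNA column the median was 82.6 FPKM for complex II, 117 for complex I, 224 for complex III, 261 for complex V and 308 for the 12 expressed genes of complex IV. That order of the 5 complexes was the same in all 4 columns, but the genes of neighbouring complexes overlapped widely, III, IV and V most of all. In the GR siRNA column the medians were 88.3 FPKM (II), 112 (I), 213 (III), 269 (V) and 289 (IV), and with DEX added they were 88.3, 118, 246, 284 and 330 FPKM. The control siRNA column with DEX held 83.8, 121, 235, 268 and 309 FPKM. The complex IV median is between 121 and 133 FPKM when its 5 unexpressed forms are counted, which places it near complex I. Without genes of shared sequence it also fell below the medians of complexes III and V, so its first place depends on the genes kept. The 4 complex II genes lay within a narrow band of 68.4 to 114 FPKM, while complex I ran from 16.0 to 399 FPKM.

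**Figure D1:**
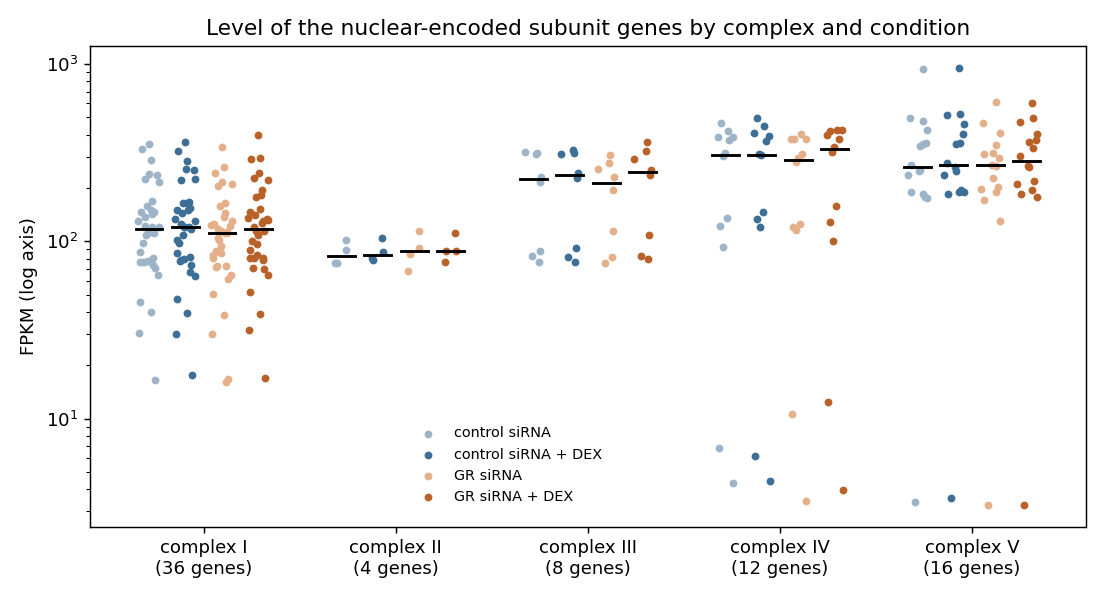
Deposited FPKM (log axis) of the 76 subunit genes of at least 1 FPKM, grouped by complex, with 1 point per gene and condition and a bar at the median. Complex II sits lowest, with medians of 82.6 to 88.3 FPKM, complex IV highest, with medians of 289 to 330 FPKM, and the 4 conditions overlap within every complex.

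In complex I, the subunits that carry the redox centres were not the most abundant. Ndufs1, the large iron-sulfur subunit, was 40.1 FPKM with control siRNA, 39.6 with DEX, 38.6 with GR siRNA and 38.9 with GR siRNA and DEX. Ndufv1, which binds NADH, was the steadiest member, at 64.6, 64.0, 64.6 and 64.8 FPKM in the same order. Among the other core subunits, Ndufs3 was 61.2 to 73.3 FPKM, Ndufs7 76.8 to 89.1, Ndufs8 112 to 127 and Ndufv2 88.7 to 101. The accessory subunit Ndufa3 was the highest, at 355, 362, 342 and 399 FPKM. Ndufa11 was the lowest in 3 columns, at 16.6 to 17.7 FPKM, and shares 12.82% of its 31-mers with other genes. In the GR siRNA column Ndufs5 was lower still, as described below. Ndufa12, at 264 to 297 FPKM, stood far above Ndufa11 in every column.

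In complex II, Sdha (the flavoprotein) was 76.0 and 79.0 FPKM with control siRNA without and with DEX, and 85.1 and 88.0 FPKM with GR siRNA. Sdhb (the iron-sulfur subunit) was 89.1, 87.5, 91.4 and 88.7 FPKM. The membrane anchors Sdhc and Sdhd were 102 to 114 and 68.4 to 80.1 FPKM. Sdha and Sdhc were higher in both GR siRNA columns than in both control siRNA columns, and Sdhd was lowest with GR siRNA alone. The share of all genes with columns so ordered was not counted. All 4 complex II genes differed by less than 25% in each comparison. Sdha, Sdhb and Sdhd share no 31-mer with another gene, so the reads of this complex are among the least ambiguous of the set.

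In complex III the small subunits stood above the large ones. Uqcrb, Uqcrq, Uqcr10, Uqcr11 and Uqcrh (the hinge protein) lay between 195 and 365 FPKM. The core proteins Uqcrc1 and Uqcrc2 lay between 75.7 and 114 FPKM and the Rieske iron-sulfur protein Uqcrfs1 between 76.4 and 81.4 FPKM. The cytochrome c1 gene Cyc1, outside the naming pattern, was 150, 153, 166 and 155 FPKM. Cytochrome c itself (Cycs) was 99.0, 97.2, 96.7 and 104 FPKM.

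In complex IV, one form of each paralog pair carried nearly all the signal. Cox4i1 was 380 to 423 FPKM, while Cox4i2, the form known from lung and from cells short of oxygen, was listed at 0 in 3 columns and at 0.0334 FPKM with GR siRNA. The liver-type Cox6a1 was 376 to 409 FPKM and the heart and muscle form Cox6a2 at most 0.0572 FPKM. Cox6b1 was 311 to 376 FPKM and the testis form Cox6b2 at most 0.268 FPKM. Cox7b2 and Cox8c, both known from testis, were listed at 0 in every column, and none of 3 testis markers passed 1 FPKM. The muscle forms Cox7a1 and Cox8b were expressed at a low level. Cox7a1 made up 2.76% to 3.41% of the summed Cox7a1 and Cox7a2 FPKM, and Cox8b 1.35% to 2.82% of the summed Cox8a and Cox8b. Of 6 muscle markers Acta1 and Tnnt2 passed 1 FPKM, at 1.95 to 2.80 and 3.08 to 3.65 FPKM, and Myh6, Myh7, Actc1 and Ckm did not pass 0.1 FPKM. The dominant form of each pair was the same in all 4 columns. The share of Cox8b was 1.6% and 1.35% with control siRNA and 2.56% and 2.82% with GR siRNA.

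In complex V, Atp5b, the catalytic beta subunit, was the most abundant of all 76 genes in every column. The alpha subunit Atp5a1, present in equal number in the enzyme, was 271, 275, 313 and 303 FPKM. The gamma subunit Atp5c1 of the central stalk was 184 to 196 FPKM and the delta subunit Atp5d 251 to 271 FPKM. The c-ring is encoded by 3 genes that give the same mature protein. Atp5g2 made up 43.3% to 45.1% of their summed FPKM, Atp5g3 36.8% to 39.4% and Atp5g1 16.3% to 19.9%. Atp5g1 was higher with GR siRNA (203 and 218 FPKM without and with DEX) than with control siRNA (179 and 196 FPKM). Atp5s was the least abundant of the 76, at 3.27 to 3.59 FPKM.

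The first comparison asks what the subunit genes do when less GR mRNA is present. Without DEX, most were slightly lower with GR siRNA: 55 of 76 were lower and 21 higher, with a median difference of -0.09 in log2(FPKM + 1), against -0.01 over all 11325 genes tested. Of all genes tested 52.8% were lower, and of those of at least 10 FPKM 55.7%. By complex the medians were -0.09 for I, 0.10 for II, -0.08 for III, -0.07 for IV and -0.13 for V. Upper quartile rescaling took I, III, IV and V to -0.040, -0.034, -0.028 and -0.090. Complex III stood at 0.003 without genes of shared sequence, and complex IV at 0.007 relative to other genes of its coding length classes. Counting values at least 25% apart (the higher over the lower, each as FPKM + 1), 8 members were lower (8.86% of all genes tested) and 2 were higher (7.70% of all genes tested), so the count lower is close to the background share and the count higher is below it. The 8 were Ndufs5, Ndufc2, Atp5b, Atp5k, Ndufa4, Atp5j2, Atp5l and Ndufa5, and the 2 were Cox8b and Uqcrc1. Here and in all later counts, 25% or more lower means that the higher value stood at least 25% above the lower one. Atp5l and Ndufa5 are therefore counted, with changes in FPKM of -24.8% and -23.7%. Ndufs5 alone was 2-fold apart, as were 1.5% of all genes. Rescaling the columns to equal upper quartiles left 46 lower and 30 higher, with a median of -0.047.

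With DEX in both arms the lean was gone. Then 37 of 76 were lower and 39 higher with GR siRNA, the median was 0.01 against -0.01 over all 11344 genes, and complexes I to V had medians of 0.00, 0.06, 0.06, -0.00 and -0.07. Of all genes 51.8% were lower. On the same scale 4 of 76 were lower by the 25% cut (Ndufc2, Atp5b, Ndufa1 and Ndufa2, background 8.69%). Only 1 was higher (Cox8b, background 7.78%). The FPKM of Ndufa1 and Ndufa2 changed by -20.5% and -20.4%. None of the 76 was 2-fold apart, where 1.35% of all genes were. After upper quartile rescaling, or centring on the median of all genes, the count lower was 2. The comparisons without and with DEX share no column. Their signs were the same for 50 of 76 members (33 lower and 17 higher in both), or 65.8%, and for 78.0% of all 11445 genes.

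**Figure D2:**
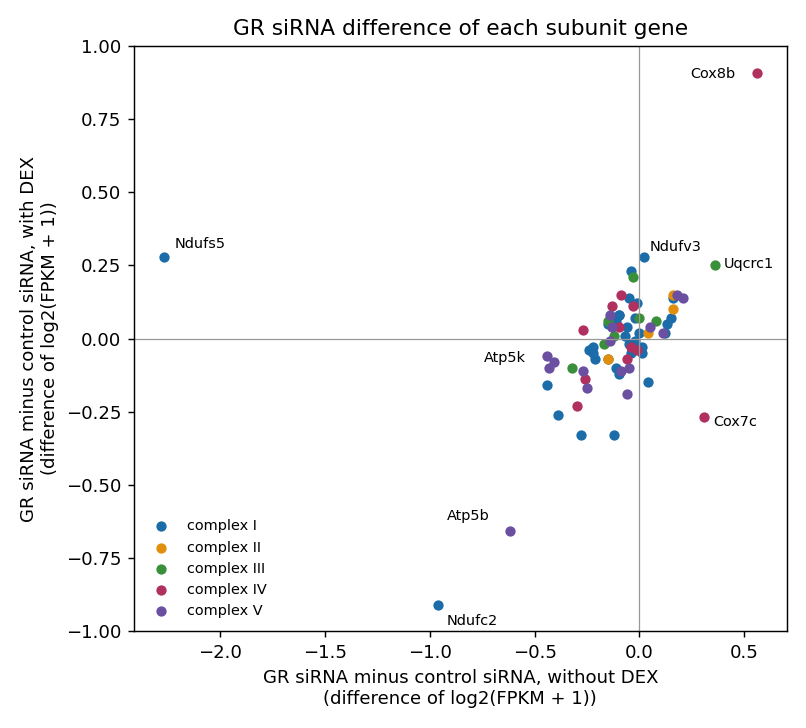
GR siRNA minus control siRNA in log2(FPKM + 1) for the 76 subunit genes, without DEX (horizontal axis) and with DEX (vertical axis), coloured by complex. Most genes lie near 0 on both axes; Atp5b and Ndufc2 lie low and Cox8b high on both, and Ndufs5 lies at -2.27 without DEX and 0.28 with DEX.

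Atp5b and Ndufc2 were the members 25% or more lower with GR siRNA in both DEX states (5.81% of all genes were), and Cox8b was the member higher in both (5.0% of all genes were). Atp5b lies on chromosome 10 at 128083273 to 128090391, plus strand, in mm10 (ENSMUSG00000025393.12). It was 941 FPKM with control siRNA and 953 with control siRNA and DEX, against 610 with GR siRNA and 603 with GR siRNA and DEX. The differences with GR siRNA were -0.62 and -0.66, and DEX made a difference of 0.02 and -0.02 within the arms. The FPKM of Atp5b over that of its partner Atp5a1 was 3.48 and 3.47 with control siRNA and 1.95 and 1.99 with GR siRNA. Atp5a1 itself was higher with GR siRNA by 0.21 and 0.14. Only 5.49% of the 31-mers of Atp5b occur in another gene. A 78-nt microRNA gene within an intron of Atp5b, Mir677, was 39.3 and 27.4 FPKM in the control columns and listed at 0 in both GR siRNA columns. Of the 31-mers of Mir677 87.5% occur in another annotated gene, and FPKM of so short a gene is unstable. The neighbours Baz2a (16.5 to 18.3 FPKM) and Ptges3 (198 to 215 FPKM) were not lower with GR siRNA, with differences of 0.03 to 0.10.

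Ndufc2, an accessory subunit of the membrane arm of complex I, lies on chromosome 7 at 97400003 to 97407802, plus strand (ENSMUSG00000030647.8), and shares no 31-mer with another gene. It was 238 FPKM with control siRNA and 252 with DEX, against 122 with GR siRNA and 134 with GR siRNA and DEX. The differences were -0.96 and -0.91. Its namesake Ndufc1 was 138, 144, 117 and 140 FPKM, so the ratio of the pair was 1.72 and 1.75 with control siRNA and 1.05 and 0.959 with GR siRNA. The nearest expressed gene downstream, Thrsp, a regulator of lipid synthesis on the opposite strand 5135 bases away, was also lower with GR siRNA, at 18.1 and 18.0 FPKM against 3.96 and 4.08 FPKM. Alg8, 7817 bases upstream, was 17.9, 18.4, 17.1 and 17.3 FPKM. The neighbours were looked up after the values of Ndufc2 were seen.

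Uqcrc1, a core protein of complex III on chromosome 9 at 108936633 to 108949623 (ENSMUSG00000025651.14), went the other way. It was 88.3 and 91.2 FPKM with control siRNA and 114 and 109 FPKM with GR siRNA, a difference of 0.36 without and 0.25 with DEX, the second less than 25%. The other core protein Uqcrc2 differed by -0.12 and 0.01. Cox8b, the muscle form of subunit VIII on chromosome 7 at 140898945 to 140900446 (ENSMUSG00000025488.9), was 6.83 and 6.13 FPKM against 10.6 and 12.4 FPKM, a difference of 0.56 and 0.91. Its longest transcript is only 360 nt, and its level is a small part of that of Cox8a, which differed by -0.06 and -0.07. Its neighbour Psmd13 was 70.8, 73.1, 72.4 and 75.1 FPKM.

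Because Atp5b, Ndufc2 and Cox8b were the members 25% or more apart in both DEX states and the siRNA was aimed at a transcription factor, their start regions are shown, each from 250 bases before to 50 bases after the RefSeq start (GRCm38.p6, the assembly of mm10), 5′ to 3′ on the gene's strand. Capitals mark matches to CCAAT (or its reverse complement) and to TATAAA. The Atp5b window is chr10:128083057-128083356, the Ndufc2 window chr7:97399753-97400052, both on the plus strand, and the Cox8b window chr7:140900397-140900696, on the minus strand.
Atp5b: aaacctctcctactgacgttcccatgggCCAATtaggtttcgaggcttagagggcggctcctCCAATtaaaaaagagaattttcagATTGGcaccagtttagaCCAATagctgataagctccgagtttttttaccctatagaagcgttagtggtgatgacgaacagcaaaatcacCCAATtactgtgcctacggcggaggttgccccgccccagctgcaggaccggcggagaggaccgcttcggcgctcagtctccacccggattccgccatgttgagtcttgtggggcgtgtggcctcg
Ndufc2: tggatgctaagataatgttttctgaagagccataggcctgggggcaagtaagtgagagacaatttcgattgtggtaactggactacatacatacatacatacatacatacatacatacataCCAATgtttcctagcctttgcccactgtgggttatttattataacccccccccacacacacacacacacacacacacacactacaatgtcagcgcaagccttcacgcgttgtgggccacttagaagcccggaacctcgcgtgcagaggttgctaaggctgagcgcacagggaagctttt
Cox8b: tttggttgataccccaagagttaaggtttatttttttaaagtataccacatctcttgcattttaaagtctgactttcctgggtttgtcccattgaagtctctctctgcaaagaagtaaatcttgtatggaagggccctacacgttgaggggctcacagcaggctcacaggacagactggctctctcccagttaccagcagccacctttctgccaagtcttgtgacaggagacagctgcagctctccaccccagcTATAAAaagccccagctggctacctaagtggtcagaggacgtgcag

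Atp5b has 5 CCAAT matches in its window, Ndufc2 has 1 and Cox8b has none. Cox8b has 1 match to TATAAA, 4 bases after the RefSeq start, and none of the 3 windows holds any of the other motifs searched. Promoter windows were found for 67 of the 81 members (72 windows), and all 7 motifs searched, on both strands and each counted on its own, are given here against 32851 windows of the same length. The core CGCATGCG of the site of NRF1, a factor known to act on respiratory genes, stood in 12.5% of member windows and 1.87% of all windows. The core CCGGAAG bound by ETS factors such as GABP stood in 22.2% and 8.86%, AAGATGGC of YY1 in 13.9% and 2.75%, and the cyclic AMP element TGACGTCA in 5.56% and 1.79%. CCAAT stood in 43.1% and 37.4%, and TATAAA in 11.1% and 13.6%. The loose glucocorticoid element ACANNNTGT was in 0 of 72 member windows and in 6.85% of all windows. Member windows had a median GC content of 57.5% against 52.7% for all, and 19 CpG against 7. The YY1 match was in 7 of 32 complex I genes and in 3 of 15 complex V genes with a window, and in none of the 12 complex IV genes. These are letter matches in the genome, and no binding was measured here.

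The 3′ untranslated regions were looked at for the heptamers TTCTGAA and TCTGAAA, which an earlier look at these data had linked with lower levels under GR siRNA, so the values are a description. Among all genes with such a region, the 3248 that hold either heptamer had a median difference of -0.06 without DEX and 13.2% were 25% or more lower on the scale above, against 0.01 and 6.32% for the 7499 without. With DEX the medians were -0.06 and 0.01. Among the members 12 of 76 hold one, or 15.8% against 30.2% of all genes, and their median was -0.08 without and -0.09 with DEX, against -0.09 and 0.02 for the 64 others. Atp5b and Atp5s hold both as the 8 bases TTCTGAAA, as do 8.51% of genes, whose median was -0.11. Atp5s differed by -0.05 and -0.10, and Ndufc2 holds neither heptamer. Of the 12 members with a heptamer 8 were lower without DEX, as were 47 of the 64 others. The holders Cox7c (0.31), Atp5g1 (0.18), Sdha (0.16) and Ndufa9 (0.15) were higher there. The labels give no siRNA sequence, and the part of these matches in the results was not tested. A longer region has more room for a match, and region length was not taken into account in the shares and medians above. The sites of Atp5b (chr10:128090284-128090311, plus strand) and Ndufa4 (chr6:11900367-11900393, minus strand) are shown with the heptamers in capitals. Both genes were picked from the 8 members 25% or more lower without DEX, so the sites do not stand for all 12 holders.
Atp5b: tttatgttgcTTCTGAAAcagcttataa
Ndufa4: tgaataaatcTCTGAAActtgatgcgt

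Ndufs5, an accessory subunit of complex I on chromosome 4 at 123712710 to 123718202 (ENSMUSG00000028648.13), had the widest range of all members. It was 81.0 FPKM with control siRNA, 66.8 with control siRNA and DEX, 16.0 with GR siRNA and 81.1 with GR siRNA and DEX. The GR siRNA column alone stood far below the other 3. A processed pseudogene on chromosome 16 at 42955631 to 42955949, BC002163, shares 26.47% of the 31-mers of Ndufs5, and 80.97% of its own 31-mers occur in another gene. It was 0.0593, 12.1, 56.3 and 0.275 FPKM in the same order, high where Ndufs5 was low. The sum of both was 81.0, 78.9, 72.3 and 81.3 FPKM, and on that sum the differences with GR siRNA were -0.16 without and 0.04 with DEX, in place of -2.27 and 0.28. The longest transcripts are 680 nt for Ndufs5 and 319 nt for BC002163. A fragment therefore adds a different FPKM to each, and the sum is only a rough guide. On that sum no member was 2-fold apart in any of the 4 comparisons. The level of Ndufs5 alone is therefore uncertain in these columns. Of the other 13 members that share at least 5% of their 31-mers with a gene of the table, none had a partner that spanned as wide a range of FPKM over the columns.

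**Figure D3:**
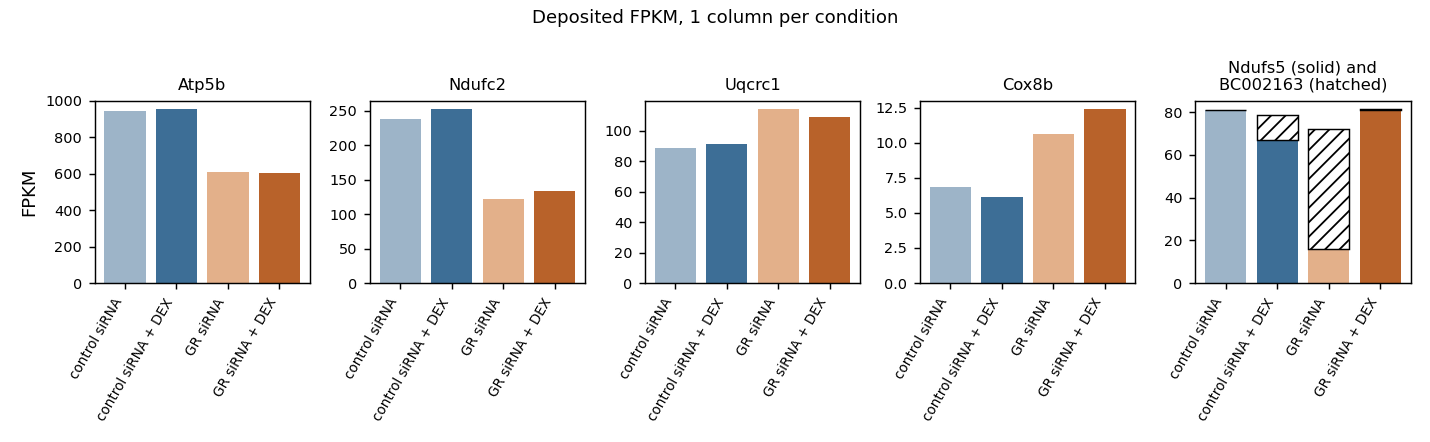
Deposited FPKM (bars from 0, 1 column per condition, no error can be given) of Atp5b, Ndufc2, Uqcrc1, Cox8b and Ndufs5, the last with the pseudogene BC002163 stacked on it. The GR siRNA bars are low for Atp5b (610 and 603) and Ndufc2 (122 and 134), and the Ndufs5 and BC002163 bars together reach 72.3 to 81.3 FPKM.

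Several members were low in the GR siRNA column only. Atp5k, a small subunit of the membrane part of the synthase, was 476, 521, 351 and 499 FPKM. Atp5j2 was 175, 190, 130 and 177 FPKM, Atp5l 355, 358, 267 and 337 FPKM, and Atp5e, the epsilon subunit, 357, 404, 295 and 373 FPKM. All 4 were below every other column there. The same held more widely: 51 of the 76 members had their lowest value in the GR siRNA column, where 26.3% of all genes of at least 1 FPKM had theirs. Ndufa4 (331, 324, 244 and 290 FPKM) and Ndufa5 (146, 155, 112 and 130 FPKM) were lowest there too, and stayed below both control columns with DEX. Ndufa2 (114, 121, 93.7 and 96.4 FPKM) and Ndufa1 (86.9, 102, 80.1 and 80.8 FPKM) were lower in both GR siRNA columns than in both control columns.

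Over the 4 columns most members stayed within a narrow range, but no such range was taken over all genes. The highest over the lowest of the 4 values had a median of 1.15 over the 76 genes, and for 57 of them the values lay within 25% of each other. It reached 1.5 in 4 genes, which were Ndufs5 (5.07), Ndufc2 (2.06), Cox8b (2.02) and Atp5b (1.58). The size of the difference, whatever its sign, had a median of 0.126 over members and 0.133 over all genes for GR siRNA without DEX. The matching values were 0.076 and 0.131 with DEX. For DEX they were 0.046 and 0.050 in control siRNA cells, and 0.142 and 0.067 in GR siRNA cells. Cox5a, a nuclear-encoded complex IV subunit, was 303, 310, 282 and 319 FPKM. Of the 76, 33 had their highest value with control siRNA and DEX and 31 with GR siRNA and DEX. The matching shares of all genes were not counted, so these counts describe the members only.

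Coding length moved with this pattern. Without DEX, the GR siRNA difference was -0.09 in the median of 695 other genes with a coding length under 450 nt, -0.04 from 450 to under 900 nt, -0.01 from 900 to under 1500 nt and 0.00 above. The members gave -0.11 (43 genes), -0.04 (22 genes), 0.02 (7 genes) and 0.05 (4 genes), the last pair of classes being thinly filled. Set against other genes of their own length class, the members had a median of -0.007, with 40 lower and 36 higher. With DEX in both arms the shortest class of other genes had a median of -0.00 and the members one of -0.03. Both groups of ribosomal protein genes, which also have short transcripts, were low in the same column. Of the cytosolic ones 75 of 80 were lower (median -0.16), and of the mitochondrial ones 56 of 77 (median -0.09), where 52.8% of all genes were. With DEX in both arms the counts were 48 of 80 (median -0.02) and 33 of 77 (median 0.02), against 51.8% of all genes. The part of transcript length in the results was not tested.

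**Figure D4:**
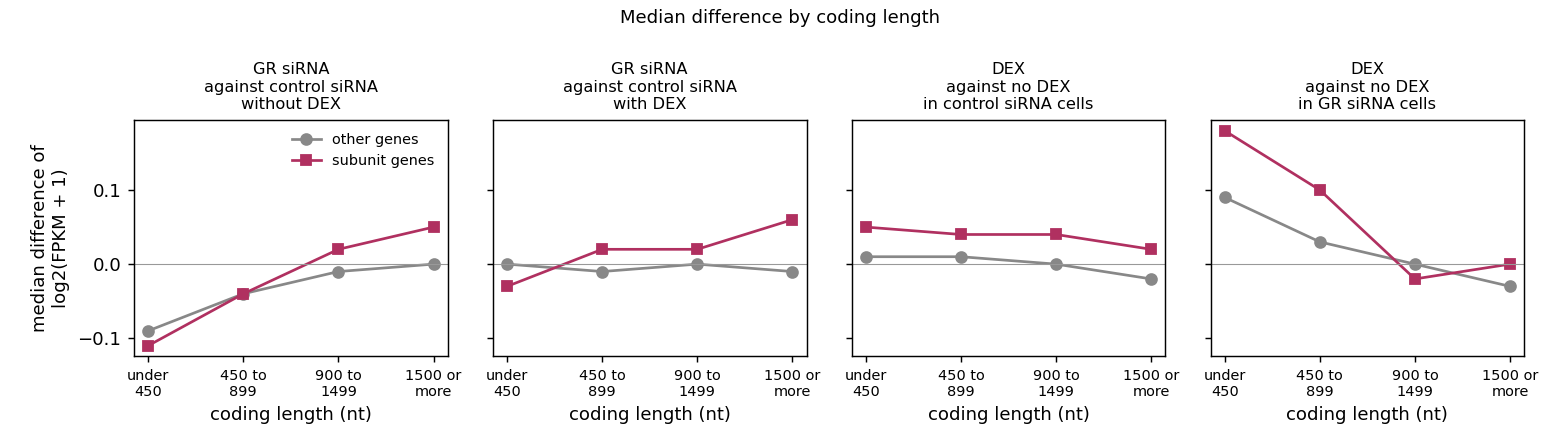
Median difference in log2(FPKM + 1) by coding length class for the subunit genes (red squares, 43, 22, 7 and 4 genes) and all other genes (grey circles), in the 4 comparisons. In the shortest class both lie below 0 for GR siRNA without DEX (-0.11 and -0.09) and above 0 for DEX in GR siRNA cells (0.18 and 0.09).

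The second question is what DEX does in each siRNA arm. With control siRNA the members were slightly higher with DEX: 55 of 76 were higher and 21 lower, with a median of 0.04 against -0.01 over all 11227 genes, and medians of 0.04, 0.05, 0.02, 0.06 and 0.05 for complexes I to V. Of all genes 47.4% were higher. Upper quartile rescaling left 63 higher and 13 lower. In all 1 of 76 was 25% or more higher (Cox7c; background 1.02%) and 0 were lower (background 0.882%), with none 2-fold apart (background 0.837%). Cox7c, a small complex IV subunit that shares 24.55% of its 31-mers with other genes, was 93.5, 121, 116 and 100 FPKM. Its 2 highest values were with control siRNA and DEX and with GR siRNA without DEX, so neither both DEX columns nor both GR siRNA columns stood apart. After Cox7c the largest differences were those of Ndufa1 (86.9 and 102 FPKM, 0.22) and Atp5e (0.18), and on the lower side those of Ndufs5 (-0.27), Cox8b (-0.14) and Uqcrq (-0.04).

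In GR siRNA cells 64 of 76 members were higher with DEX and 12 lower, with a median of 0.14 against -0.00 over all 11310 genes. Of all genes 48.1% were higher. In all 7 of 76 were 25% or more higher (Ndufs5, Atp5k, Atp5j2, Cox7b, Atp5l, Atp5e and Ndufv3; background 1.26%), 0 were lower (background 0.973%), and Ndufs5 alone was 2-fold apart (background 0.875%). The count higher is above the background share. The comparisons of DEX in the control and GR siRNA arms share no column: 45 of 76 members were higher in both and 2 lower in both, so 61.8% had the same sign, against 50.7% of all genes. With 55 and 64 of 76 members higher in these arms, many shared signs follow from those totals alone. The share therefore does not show that the arms agree gene by gene. The DEX comparison in GR siRNA cells shares the GR siRNA column with the GR siRNA comparison without DEX. In that column Ndufs5, Atp5k, Atp5j2 and Atp5l were at their lowest. The medians were 0.14, 0.02, 0.15, 0.16 and 0.10 for complexes I to V. Without genes of shared sequence complex V stood at -0.012, and relative to other genes of the same coding length class complexes I, III, IV and V stood at 0.076, 0.101, 0.077 and 0.038. Against other genes of the same coding length class, the median was 0.073 and 54 were higher. Ndufv3, a flavoprotein fraction subunit of complex I, was 183 FPKM with DEX in GR siRNA cells against 143 to 151 FPKM in the other columns, and Cox7b, a small complex IV subunit, was 136, 147, 125 and 159 FPKM. Cytosolic ribosomal protein genes had a median of 0.15 in this comparison, with 77 of 80 higher.

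The other genes of the pathway followed the subunits in part. Of 8 subunit genes outside the naming pattern, 7 passed 1 FPKM, and 5 of the 7 were lower with GR siRNA without DEX (median -0.08) and 2 with DEX (median 0.02). Of all genes 52.8% and 51.8% were lower. Usmg5, a small ATP synthase subunit, was 653, 649, 520 and 648 FPKM, the same shape as Atp5k. None of the 13 mitochondrially encoded subunits was found under the symbols looked up, so they were not analysed here. Of 42 assembly factor genes 3 were 25% or more higher and 3 lower without DEX (background 7.70% and 8.86%), and 2 and 1 with DEX (background 7.78% and 8.69%). These shares are near or below the background. The genes of the widest difference without DEX were Coa5 and Cox18. Coa5, needed for complex IV assembly, was 21.5 and 21.3 FPKM with control siRNA and 14.0 FPKM in both GR siRNA columns, and Cox18, which inserts a complex IV subunit into the membrane, was 15.6 and 17.1 against 22.5 and 22.1 FPKM. Of 12 expressed regulators of mitochondrial biogenesis 1, the rRNA methyltransferase Tfb1m, was 25% or more apart in each siRNA comparison (2.90 and 2.99 against 3.96 and 4.08 FPKM). Tfam, which packages mitochondrial DNA, was 10.3 FPKM in both control columns and 8.59 and 8.42 FPKM with GR siRNA, and the coactivator Ppargc1a was at most 0.00579 FPKM.

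Around the chain, 16 of 24 genes of the tricarboxylic acid cycle and pyruvate dehydrogenase were higher with GR siRNA without DEX and 18 of 24 with DEX, with medians of 0.07 in both. Of all genes 47.2% and 48.2% were higher. Pdk1, a kinase that restrains pyruvate dehydrogenase, was lower (21.4 and 22.7 against 13.9 and 13.8 FPKM), and Pdk3, of the same family, was higher (7.44 and 6.84 against 9.60 and 9.29 FPKM). Of 16 genes of electron carriers and ubiquinone synthesis 10 and 12 were higher, beside the same shares of all genes, with medians of 0.03 and 0.06. Of 17 glycolysis genes 12 were higher in each state (47.2% and 48.2% of all genes were), with medians of 0.11. By 25% or more, 4 were higher without DEX (Hk1, Hk2, Pfkl and Pfkfb3; background 7.70%) and 4 with DEX (Hk2, Pfkl, Pfkp and Eno1; background 7.78%), so Hk2 and Pfkl were in both. Among the carriers, the uncoupling protein gene Ucp2 was 56.2 and 69.9 against 19.3 and 18.4 FPKM, while the adenine nucleotide carriers Slc25a4 and Slc25a5 were 331 to 403 and 325 to 357 FPKM. The 5 genes whose profile over the 4 columns lay nearest to the members' median profile, of 8432 candidates of at least 5 FPKM, were Fastkd2, Rpl19, Csgalnact2, Vti1b and Lxn, at distances of 0.0084 to 0.0154 in log2 units over 4 columns.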

How the data were processed

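The authors deposited 1 table of FPKM per gene, with 4 columns of 23997 genes and no replicate columns. Per the submitters' processing notes TopHat2 and Cuffdiff were used on mm10; their versions, the annotation, strand setting and treatment of replicates were not given in the sources used here, and since FPKM keeps no read counts, absolute depth is unknown; relative depth came from the commonest ratio between columns among genes under 0.1 FPKM. Genes reaching 1 FPKM in either column of a comparison entered it, log2(FPKM + 1) was subtracted, which makes differences of low genes too small, and genes were counted at 25% and at 2-fold apart with no p-value. Other scalings, filters and a pseudocount of 0.1 are in the closing section. The members and the lists of other genes were chosen with earlier results of these data known. Any member could be named; of the other lists up to 3 members of the largest difference were named, and other genes named were chosen after their values were seen. Symbols were matched to GENCODE M21 (22694 by symbol, 916 by synonym, 387 not), all 81 members by symbol; 31-mers were compared over all annotated transcripts on both strands, coding length is the longest annotated coding sequence, and promoter windows are from RefSeq. The values of 1 member, which is counted in all totals, are not reported here. The code of the counting step was run on simulated data with little noise and with changes well away from the 1.25-fold cut. That run does not measure how reliable the counts are. Python 3.11.15, pandas 2.3.3 and numpy 2.4.6 were used.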

Additional observations from a re-analysis of the deposited data

Results flagged for a closer look

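Members were picked out where an effect had opposite signs in both arms and both sizes reached the median size over all genes (0.133 for GR siRNA, 0.067 for DEX); these differences were not tested. For GR siRNA, Ndufs5 differed by 2.55 between the DEX states (-2.27 without and 0.28 with DEX), and Cox7c by -0.58 (0.31 and -0.27). For DEX, the difference between GR siRNA and control siRNA cells was 2.55 for Ndufs5 (-0.27 and 2.27), -0.58 for Cox7c (0.37 and -0.21) and 0.34 for Cox8b (-0.14 and 0.21). Each value is a difference of differences in log2(FPKM + 1), so both lines of Ndufs5 and of Cox7c restate the same 4 columns. Ndufs5 shares 26.47% of its 31-mers with BC002163, and Cox7c shares 24.55% of its 31-mers with other genes.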

How the results depend on the processing

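No paired analysis was possible because the table holds 1 column per condition. The median of all genes moved by less than 0.1 under every scaling tried. Without genes of shared sequence (46 members left; none has a transcript under 300 nt), 5 members were 25% or more lower for GR siRNA without DEX, 0 were higher for DEX with control siRNA and 4 were higher for DEX with GR siRNA, with 0 members 2-fold apart in any comparison. Under the same setting the medians for GR siRNA without DEX were 0.003 for complex III, a reversal, and -0.065 for complex V, and that of complex V for DEX with GR siRNA was -0.012, also a reversal. Upper quartile rescaling and centring each gave 2 lower members for GR siRNA with DEX. With no filter 1 member, under 1 FPKM, was lower for DEX with GR siRNA. Relative to other genes of the same coding length class, a setting chosen after seeing the data, the member median was -0.007 for GR siRNA without DEX and 0.073 for DEX with GR siRNA, with 4 members higher in the latter, and complex IV without DEX reversed to 0.007. Summing Ndufs5 with BC002163, also chosen after seeing the data, changed no count at 25% by over 1.5 times, but took the members 2-fold apart from 1 to 0 for GR siRNA without DEX and for DEX with GR siRNA. The complex IV level was 123 to 144 FPKM without genes of shared sequence. Upper quartile rescaling took the member median from -0.092 to -0.047 without DEX and from 0.011 to 0.047 with DEX for GR siRNA. Pseudocount 0.1 put 1 member (Cox8b, 0 otherwise) 2-fold apart for GR siRNA with DEX and moved no other median or count by over 1.5 times, and the 5 FPKM filter moved 1, the complex IV median for GR siRNA with DEX, from -0.001 to 0.032. The shallowest column, control siRNA, limits low genes most.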
